A study of Mus musculus with 20 samples.

Results

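The genes described here encode the proteins of the mitochondrial ribosome. They were taken as all gene IDs that start with Mrpl (large subunit) or Mrps (small subunit), with pseudogenes and joined gene groups left out. There were 76 such genes, 47 Mrpl and 29 Mrps, among 25246 gene IDs without mitochondrially encoded genes and spike-ins. They were followed in single thymic precursors of intestinal intraepithelial lymphocytes, sequenced with CEL-Seq2, which counts the 3′ ends of transcripts with unique molecular identifiers. Cells with at least 2000 transcripts were kept, which left 1413 of 1920 sorted cells.

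Cells were taken to come from the thymus of 3 mice, 1 of each genotype. The study's text also writes of these mice in the plural, and of 2 to 3 weeks of age for the C-myc genotypes. All were TCRβ+CD4-CD8- after depletion of CD4 and CD8 cells. The deposited description gives the sorted cells as NK1.1+, while the study's methods give NK1.1-, and both are left as stated. All 3 mice carried TBGR, a ZsGreen reporter of T-bet (Tbx21), the transcription factor of the later precursor stages. The TBGR mouse was wild type for C-myc and 4 weeks old, and gave 8 libraries. The TBGR C-myc fl/fl mouse was 2 weeks old, had both C-myc alleles floxed without Cre, and gave 8 libraries. The TBGR C-myc D/D Cd4 mouse was 2 weeks old, had C-myc deleted by a Cre transgene driven by Cd4, and gave 4 libraries. TBGR cells were sorted into 4 populations with 2 libraries each: CD122+ cells with high, int or no T-bet, and CD122- cells with no T-bet. The C-myc fl/fl libraries held either both T-bet- populations or both T-bet+ populations (int and high), 4 libraries of each kind, numbered 1 to 4 here. The C-myc D/D Cd4 mouse gave 2 libraries of each T-bet- population. CD122 is the β chain of the IL-2 and IL-15 receptors. Libraries of 1 mouse are technical replicates, so no test and no p-value is given, and intervals cover counting error only. Age, genotype and library preparation cannot be told apart between TBGR and the other 2 mice. Spike-ins were read only in TBGR libraries, and the study's methods name more than 1 sequencer model.

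Mitochondrial ribosomes translate the few messenger RNAs encoded by mitochondrial DNA, all of which code for subunits of oxidative phosphorylation. Their RNA comes from mitochondrial DNA, but every one of their proteins is encoded in the nucleus, made on cytosolic ribosomes and imported. Some of these proteins resemble bacterial ribosomal proteins and others are specific to mitochondria. MYC is known as an activator of genes for cytosolic ribosomes and for mitochondrial biogenesis. 1 member by name, Mrps36, is now known as a component of the 2-oxoglutarate dehydrogenase complex.

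Each library and population held 22 to 94 passing cells and 94268 to 775264 transcripts. A group of 16 genes led by Gm10800 held the low-quality markers Kcnq1ot1, Gm10715, Gm42418 and Gm10800 and the genes that tracked them. It took 8.62% to 35.5% of transcripts in TBGR, 22.9% to 63.0% in C-myc fl/fl and 30.3% to 41.1% in C-myc D/D Cd4 libraries. Levels below are therefore given as transcripts per 1000000 transcripts outside this low-quality group. In C-myc fl/fl the CD122-T-bet- cells of T-bet- libraries 2 and 4, at 59.3% and 63.0%, and the CD122+T-bet- cells of library 4, at 57.7%, stood highest. The gate was seen in the RNA: Il2rb, which encodes CD122, was at 0 to 19.4 CPM in CD122- and 146 to 554 CPM in CD122+ libraries, where CPM is per 1000000 of all transcripts. Tbx21 was at 0 to 13.4 CPM in T-bet- and 12.4 to 214 CPM in T-bet int and high libraries. Myc was at 16.7 and 30.01 CPM in the CD122- and 44.5 and 9.96 CPM in the CD122+ C-myc D/D Cd4 libraries. In C-myc fl/fl it was at 63.0, 14.0, 62.3 and 24.4 CPM in CD122- and 73.8, 125, 135 and 10.6 CPM in CD122+T-bet- libraries, so the 2 genotypes overlapped. The sources used here do not say whether the counted 3′ end lies in the deleted part of Myc, so these values check the labels only in part. T cell genes summed to 2366 to 7330 CPM per library, with Trbc2 at 0 in all of them. Multi-mapping reads were discarded and largely overlapping loci merged before counting, and whether a 0 means absent RNA was not tested. Genes of other cell types were lower, with B cell genes at 24.4 to 510 CPM, myeloid and dendritic cell genes at 12.2 to 852 CPM, erythroid genes at 0 to 148 CPM, NKT cell genes at 51.2 to 675 CPM and γδ T cell genes at 191 to 1513 CPM.

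Promoters are shown for the members at both ends of the comparison of the 2 C-myc genotypes in CD122+T-bet- cells, in which the members differed most. These are Mrpl42 and Mrps33, the lowest there, and Mrps6 and Mrpl49, the highest. RefSeq promoter windows of 300 bases (250 before and 50 after the start, GRCm38.p6) were found for 67 of the 76 members. The first 280 bases of each are printed, 5′ to 3′ on the gene's strand, with AAGATGG, the core of the YY1 motif, in capitals.
Mrpl42: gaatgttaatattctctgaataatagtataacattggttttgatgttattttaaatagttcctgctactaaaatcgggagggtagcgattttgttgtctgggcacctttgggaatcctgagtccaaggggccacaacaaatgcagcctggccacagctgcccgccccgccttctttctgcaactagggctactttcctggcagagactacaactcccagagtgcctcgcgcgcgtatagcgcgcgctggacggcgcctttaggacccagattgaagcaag
Mrps33: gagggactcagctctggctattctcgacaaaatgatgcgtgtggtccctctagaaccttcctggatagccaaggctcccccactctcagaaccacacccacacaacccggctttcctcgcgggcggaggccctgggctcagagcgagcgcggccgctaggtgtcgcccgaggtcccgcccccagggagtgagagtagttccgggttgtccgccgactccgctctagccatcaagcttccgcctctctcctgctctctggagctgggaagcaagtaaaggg
Mrps6: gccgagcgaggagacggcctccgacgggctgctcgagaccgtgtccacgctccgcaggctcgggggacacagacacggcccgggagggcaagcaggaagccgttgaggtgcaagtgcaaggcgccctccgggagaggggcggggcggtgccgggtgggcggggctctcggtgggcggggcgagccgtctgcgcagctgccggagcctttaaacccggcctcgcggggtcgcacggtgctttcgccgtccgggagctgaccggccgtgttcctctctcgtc
Mrpl49: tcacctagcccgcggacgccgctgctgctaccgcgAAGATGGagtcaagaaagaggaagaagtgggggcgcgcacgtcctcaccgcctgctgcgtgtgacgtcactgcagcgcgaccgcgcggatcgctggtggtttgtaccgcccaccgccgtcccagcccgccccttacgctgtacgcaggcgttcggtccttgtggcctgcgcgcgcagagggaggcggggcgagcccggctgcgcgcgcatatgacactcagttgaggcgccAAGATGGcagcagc
The windows lie at chr10:95501920-95502199 (minus strand), chr6:39810907-39811186 (minus), chr16:92058086-92058365 (plus) and chr19:6057726-6058005 (minus). Exact letters were searched on both strands of the whole windows. CACGTG, the E-box that MYC is known to bind, was in 5 of 67 member windows (7.46%) and in 7.24% of all 27025 windows. The ETS motif CCGGAAG was in 34.3% of member windows against 9.12% of all, AAGATGG in 19.4% against 6.48%, and the NRF1 motif GCGCATGC in 11.9% against 2.80%. CCGGAAG and AAGATGG can share the letters AAG, so their counts may overlap. Of the 24 members with a window that were lower by the rule given below in C-myc D/D Cd4 CD122+T-bet- cells, 2 held CACGTG and 10 held CCGGAAG. Of the members printed above, Mrpl42 also held AAGATGG and Mrps33 held CCGGAAG. Both matches reach into the last bases of the windows, which are not printed. A match is a description of the window and says nothing of binding.

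The members were detected widely but at low levels. Summed over the 20 libraries they gave 0.335% of transcripts, against 28.6 times as many from cytosolic Rps and Rpl genes. Every population had transcripts of 75 or 76 of the 76 members. The highest totals were those of Mrpl18 with 1442 transcripts, Mrpl10 with 900, Mrpl51 with 806, Mrpl9 with 774 and Mrps14 with 740, and the 5 together made up 15.1% to 18.1% of the members' sum in each population. Of the 76 members, 67 reached 200 transcripts over all passing cells and entered the gene-by-gene comparisons. The others were Mrpl55 (196 transcripts), Mrps11 (194), Mrps10 (181), Mrps18a (178), Mrpl44 (176), Mrpl50 (171), Mrps31 (142), Mrpl38 (121) and Mrps18b (17). In the GENCODE annotation of GRCm38, 12 members overlap another gene on their own strand and 34 one on the other strand. On the same strand Mrps6 overlaps Slc5a3, Mrps24 Urgcp, Mrpl51 Mir3098, Mrpl2 Gm26904, Mrpl15 Gm37144 and Mrpl46 Gm45059. The split of reads within each of these pairs is uncertain.

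Levels per library of the summed members are plotted below with the ratio to cytosolic ribosomal protein transcripts. The sum of the members in the 2-week-old C-myc fl/fl mouse was at 5484, 4038, 5566 and 5023 per 1000000 in CD122-T-bet-, 5973, 5449, 5671 and 5042 in CD122+T-bet-, 6084, 5799, 5801 and 5224 in T-bet int and 4765, 5027, 4484 and 4119 in T-bet high libraries. In the 4-week-old TBGR mouse it was at 3912 and 3948 in CD122-T-bet-, 4448 and 4034 in CD122+T-bet-, 4539 and 4575 in T-bet int and 3442 and 3646 in T-bet high libraries. In both mice T-bet int was the highest population by its mean (TBGR 4557 ± 25.1, SD, n = 2; C-myc fl/fl 5727 ± 361, n = 4) and T-bet high the lowest (3544 ± 145, n = 2; 4599 ± 389, n = 4). The 4 TBGR populations did not overlap in the order T-bet high, CD122-T-bet-, CD122+T-bet- and T-bet int, with 3948 and 4034 as the closest neighbours. For C-myc fl/fl, T-bet high overlapped CD122-T-bet-, and the other 3 populations overlapped each other.

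**Figure D1:**
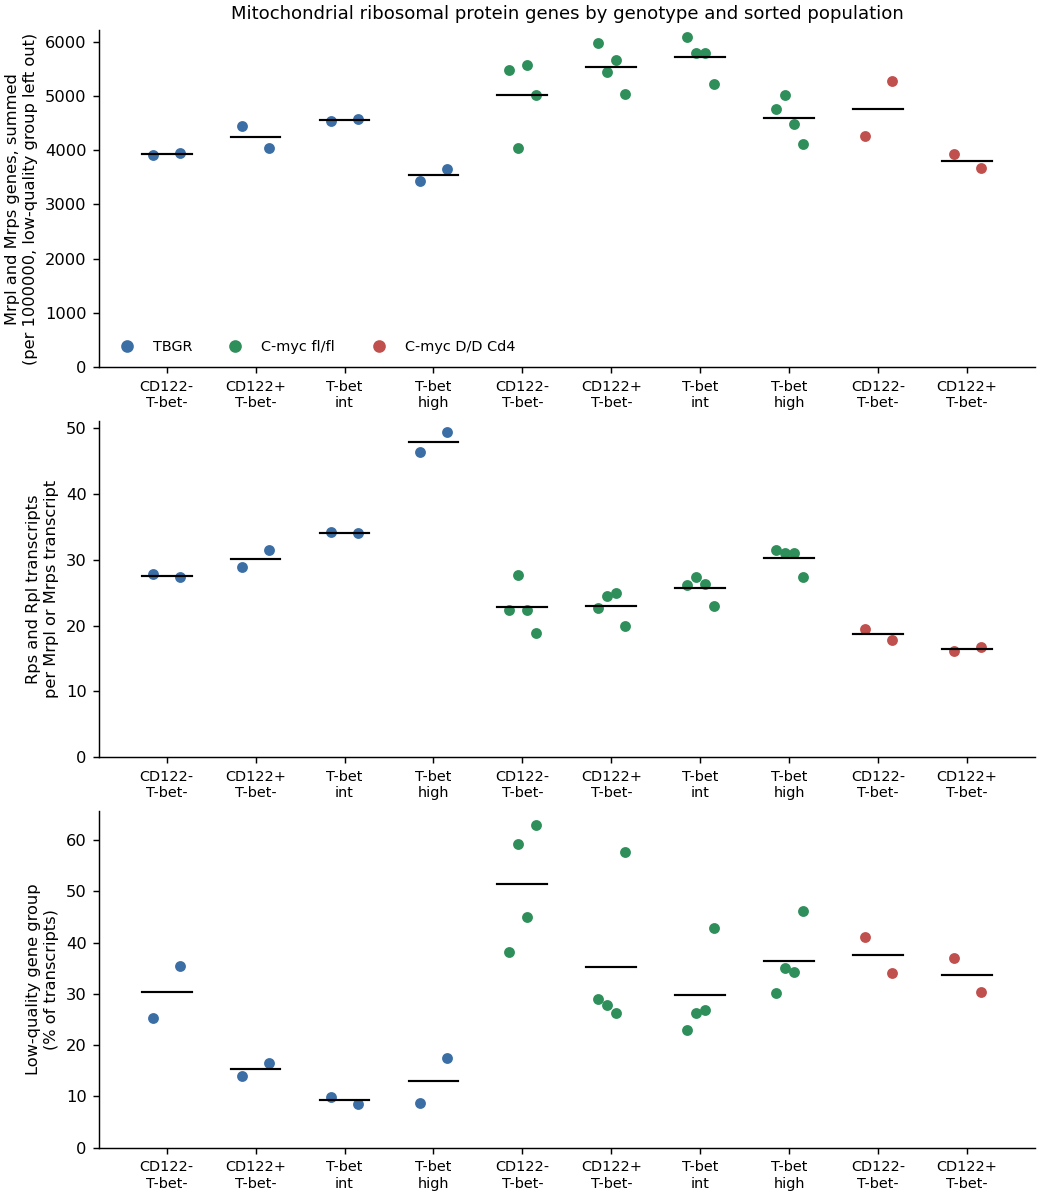
Values per library and population, with the line at the mean: transcripts of the 76 members per 1000000 transcripts outside the low-quality group, transcripts of cytosolic ribosomal protein genes per member transcript, and the low-quality group's share of transcripts in percent. C-myc D/D Cd4 CD122+T-bet- libraries, at 3936 and 3666, lie below the 4 C-myc fl/fl libraries of that population, at 5042 to 5973.

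The comparison of C-myc D/D Cd4 with C-myc fl/fl cells in CD122+T-bet- gave the largest relative difference of the 8 comparisons. The sum of members was at 3936 and 3666 per 1000000 in C-myc D/D Cd4 and at 5973, 5449, 5671 and 5042 in C-myc fl/fl libraries, so the genotypes did not overlap on this scale. On CPM of all transcripts the log2 ratio was -0.62, but there the genotypes overlapped, since C-myc fl/fl library 4, at 2132 CPM, lay below both C-myc D/D Cd4 libraries, at 2477 and 2554 CPM. To set aside scaling, the median log2 ratio over the 5870 genes with at least 200 transcripts (0.15) was subtracted. This relative log2 ratio was -0.76 (95% interval for counting error -0.85 to -0.68), a level 1.70 times lower in C-myc D/D Cd4. It was below 0 in 8 of 8 library pairs, from -0.90 to -0.37. A member was called lower or higher where its relative log2 ratio was at least 0.5 in size and the libraries of the 2 groups did not overlap. By this rule 27 of 67 members (40.3%) were lower against 17.6% of all genes tested, and 1 was higher against 15.8%. In all, 62 of 67 members had a relative ratio below 0, and the median over members was -0.72 against 0 over all genes by construction. Genotype and library cannot be told apart here, since no library holds cells of both genotypes.

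**Figure D2:**
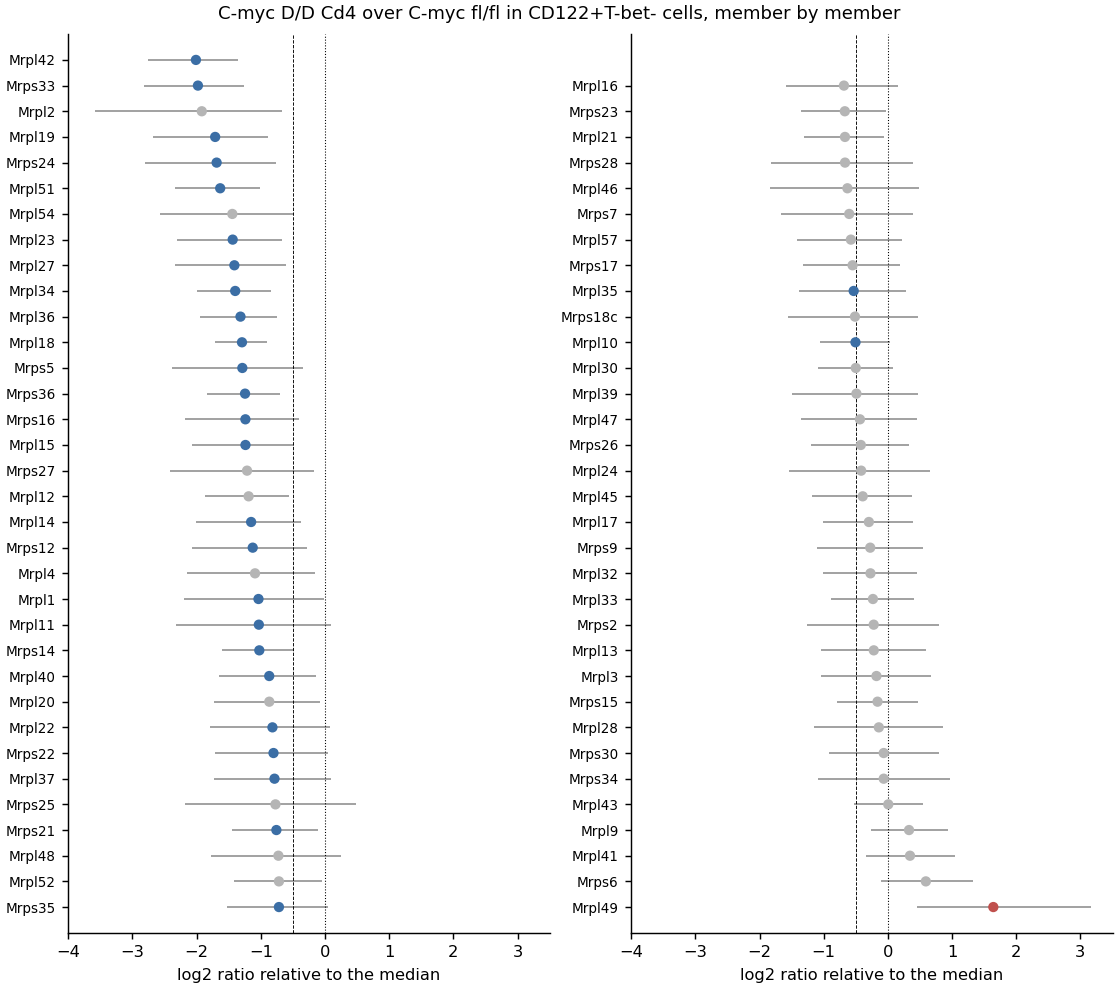
Relative log2 ratio of each of the 67 members tested, C-myc D/D Cd4 over C-myc fl/fl in CD122+T-bet- cells, with 95% intervals for counting error, and the dashed line at -0.5. The values run from Mrpl42 at -2.01 to Mrpl49 at 1.64, and 62 lie below 0.

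The lowest members came from both subunits. Mrpl42, a large-subunit protein found only in mitochondria, was at 175, 210, 147 and 125 per 1000000 in C-myc fl/fl and 40.4 and 53.6 in C-myc D/D Cd4 libraries, a relative log2 ratio of -2.01 (-2.76 to -1.36). Mrps33, a mitochondria-specific protein of the small subunit, was at 175, 105, 153 and 100 in C-myc fl/fl and 25.2 and 50.03 in C-myc D/D Cd4 libraries, a ratio of -1.98 (-2.82 to -1.26). Both were lower in every C-myc D/D Cd4 library than in any C-myc fl/fl library. Mrpl18, the member with most transcripts, whose protein lies in the central protuberance of the large subunit, was at 416, 327, 269 and 326 against 182 and 136, a ratio of -1.29 (-1.71 to -0.90). Mrpl51 was at 130, 160, 177 and 151 against 55.5 and 57.2, a ratio of -1.63 (-2.34 to -1.01). Their C-myc D/D Cd4 libraries again lay below all C-myc fl/fl libraries.

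Others past the rule were Mrpl19 (-1.71), Mrps24 (-1.69), Mrpl23 (-1.44, next to the exit of the nascent chain), Mrpl34 (-1.40), Mrpl36 (-1.32), Mrps12 (-1.13, near the decoding centre) and Mrps14 (-1.02). Mrps36, the member known from 2-oxoglutarate dehydrogenase, was at -1.25. Mrpl10, of the stalk that recruits translation factors, just passed at -0.51, with 117, 142, 128 and 151 in C-myc fl/fl and 111 and 100 in C-myc D/D Cd4 libraries. Mrpl2 was at -1.92 but did not pass, because 1 C-myc fl/fl library held no Mrpl2 transcript. Over all genes tested 17.6% were lower and 15.8% higher, which is the background for the groups of members that follow. Among large-subunit members with bacterial relatives 13 of 29 tested were lower and none higher, with a median of -0.82. Among mitochondria-specific large-subunit members 4 of 15 were lower and 1 higher, with a median of -0.63. Small-subunit members with bacterial relatives gave 6 of 14 lower (median -0.64) and mitochondria-specific ones 3 of 8 lower (median -0.75).

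A few members did not share the lower level. Mrpl49, of the large subunit and found only in mitochondria, was at 6.50, 6.17, 24.5 and 25.1 in C-myc fl/fl and 55.5 and 46.5 in C-myc D/D Cd4 libraries, a relative ratio of 1.64 (0.45 to 3.17). That rests on 24 transcripts against 7. Mrps6 was at 58.5, 43.2, 73.4 and 25.1 against 116 and 82.2, with the ratio at 0.59 (-0.10 to 1.32). It passed in size and its libraries did not overlap in these levels, but they did after 0.5 transcripts were added and each library was scaled by its median, so it was not called. Mrpl9 was at 117, 86.4, 48.9 and 100 against 172 and 85.8, so its genotypes overlapped.

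**Figure D3:**
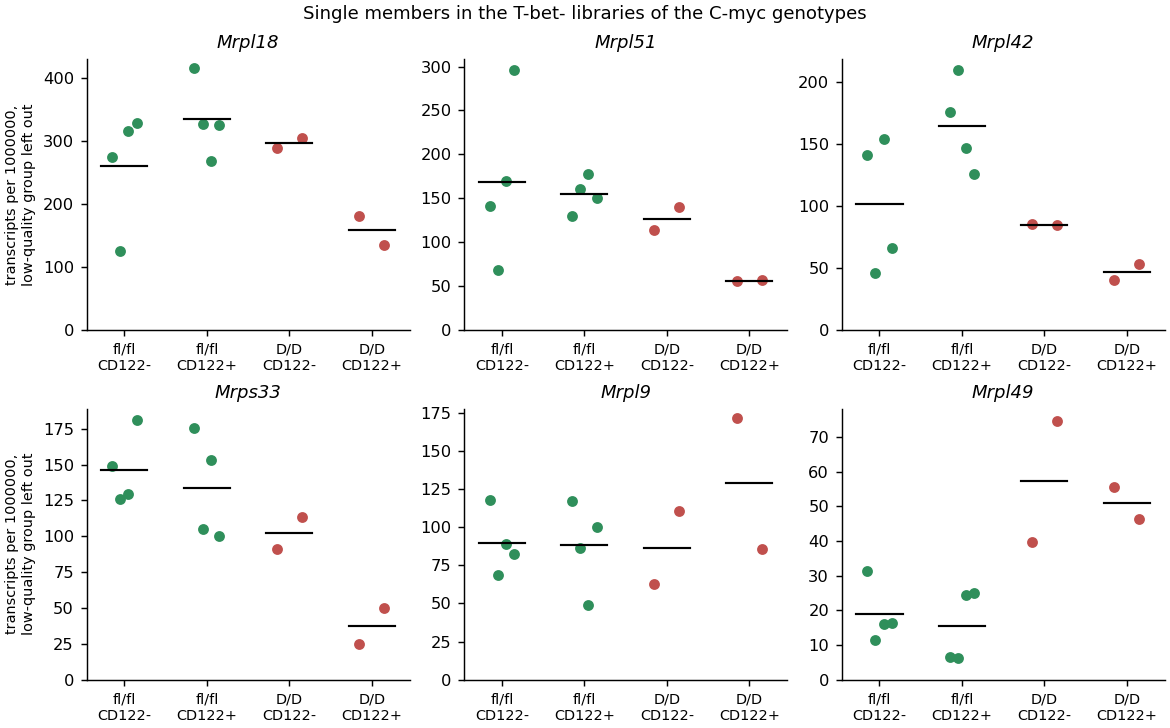
Transcripts per 1000000 outside the low-quality group for 6 members in each T-bet- library of the C-myc fl/fl and C-myc D/D Cd4 mice. Mrpl18, Mrpl51, Mrpl42 and Mrps33 lie lower in both C-myc D/D Cd4 CD122+T-bet- libraries than in the 4 C-myc fl/fl ones, Mrpl49 lies higher and Mrpl9 overlaps.

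Cytosolic ribosomal protein genes were lower by a larger amount in the same comparison. Their sum had a relative log2 ratio of -1.30, and 62 of 75 tested were lower and 0 higher. Cytosolic ribosomal protein transcripts per member transcript were 22.7, 24.6, 24.997 and 19.9 in C-myc fl/fl and 16.1 and 16.7 in C-myc D/D Cd4 libraries, which did not overlap. Nuclear genes of oxidative phosphorylation had the same relative ratio as the members to 2 decimals, -0.76, with 38 of 76 lower. The mitochondrially encoded mRNAs were at -0.72 and the mitochondrial ribosomal RNAs at 0.24. The translation factor genes Eif5a (-1.61) and Eef1b2 (-1.80) and the cell cycle kinase gene Cdk4 (-1.66) were lower by the rule.

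Genes of the cell cycle moved with this result. Of 16 listed, 14 were lower and 0 higher, and they summed to 1390 to 3700 CPM in C-myc fl/fl and 877 to 896 CPM in C-myc D/D Cd4 libraries. Their part was not tested, but with cells left out that had 2 or more cell cycle transcripts after thinning, the members' relative ratio was -0.68, over 33 C-myc fl/fl and 101 C-myc D/D Cd4 cells. Genes of CD4+CD8+ thymocytes moved the other way: 3 of 5 tested were higher, with sums of 49.6 to 71.2 CPM in C-myc fl/fl and 191.7 to 193.7 CPM in C-myc D/D Cd4 libraries, and with Rag1, Rag2 and Dntt at 0 in C-myc fl/fl and Rag2 at 0 in C-myc D/D Cd4. γδ T cell genes were at 203 to 761 CPM against 1053 to 1118 CPM, with 2 of 5 higher and Tcrg-C2 at 0 in both, and their part in the result was not tested. The low-quality share was 26.3% to 57.7% in C-myc fl/fl and 30.3% to 37.1% in C-myc D/D Cd4 libraries. With C-myc fl/fl libraries 2 and 4 left out, the relative ratio was -0.82, and it lay between -0.83 and -0.69 with any 1 library left out. The count of members called was less stable: with every cell thinned to 2000 transcripts 13 were lower and 2 higher, against 12.7% and 12.1% of genes tested, and without cells of 2 or more cell cycle transcripts 13 were lower against 10% and 0 higher.

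In CD122-T-bet- cells the members of the 2 C-myc genotypes lay closer together. The members' sum was at 4255 and 5270 per 1000000 in C-myc D/D Cd4 and at 5484, 4038, 5566 and 5023 in C-myc fl/fl libraries, which overlapped. The relative log2 ratio was -0.15 (-0.24 to -0.07), below 0 in 6 of 8 library pairs (-0.45 to 0.36). On CPM of all transcripts it was 0.30, so the direction depended on the scale. Of 67 members 8 (11.9%) were lower against 6.95% of genes tested, and 2 were higher against 7.82%. Mrpl47 was lowest at -1.04 and Mrpl49 highest at 1.48, with 31.4, 11.4, 16.2 and 16.5 per 1000000 in C-myc fl/fl and 39.8 and 74.7 in C-myc D/D Cd4 libraries, where the genotypes did not overlap. Mrps9 was higher at 0.94 and Mrps2 lower at -0.97. Cytosolic ribosomal protein genes were at -0.47, with 22 of 75 lower and 0 higher. With any 1 library left out the members' relative ratio lay between -0.38, without C-myc D/D Cd4 CD122- library 2, and -0.05, without library 1 of the same population. Without that library 2, 17 members were lower and 4 higher against 14.8% and 15.7% of genes tested, and without C-myc fl/fl library 2, 14 and 2 against 11.3% and 11.6%.

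Within the C-myc D/D Cd4 mouse, the members' sum was at 4255 and 5270 per 1000000 in CD122-T-bet- and 3936 and 3666 in CD122+T-bet- libraries, without overlap. The relative log2 ratio of CD122+ over CD122- was -0.42 (-0.51 to -0.33), and 24 of 67 members (35.8%) were lower against 20% of genes tested, with 3 higher against 21.9%. Lowest were Mrps25 (-1.61), Mrpl2 (-1.54) and Mrps33 (-1.43), and highest Mrpl43 (0.75), Mrps6 (0.73) and Mrps2 (0.58). Mrpl18 was at 290 and 305 in CD122- and 182 and 136 in CD122+ libraries, a ratio of -0.99. Cell cycle genes again moved with it, 13 of 16 lower, at 3864 to 4040 CPM in CD122- and 877 to 896 CPM in CD122+ libraries. Here the direction did not hold: without cells with 2 or more cell cycle transcripts the relative ratio was 0.11, and with every cell thinned to 2000 transcripts it was 0.03. Without CD122- library 2 it was -0.18. This comparison and the 2 between genotypes share libraries, so they are not separate evidence.

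For C-myc fl/fl cells the corresponding relative ratio was 0.11 (0.03 to 0.19), from transcripts pooled over the 4 libraries that held both populations. Taken within each library it was 0.15, 0.40, 0.03 and -0.11. By the rule, which here asked for the same direction in all 4 libraries, 7 of 67 members (10.4%) were higher against 8.09% of genes tested, and 2 lower against 9.15%. Mrps24, at 31.4, 22.9, 40.5 and 16.5 in CD122- and 71.5, 92.6, 55.1 and 75.3 in CD122+ cells, was highest at 1.21 (0.29 to 2.33). Mrpl39 (1.06), Mrpl36 (0.69), Mrps22 (0.66), Mrps36 (0.57), Mrpl34 (0.55) and Mrps14 (0.55) were also higher. Mrpl47 (-0.91) and Mrpl46 (-0.69) were lower. The low-quality share was 38.2% to 63.0% in CD122- and 26.3% to 57.7% in CD122+ cells. With cells over 30% of it left out, the sum's relative ratio was -0.15. Thinned to 2000 transcripts a cell it was 0.31, and without cells of 2 or more cell cycle transcripts 0.45, so its size and direction depended on which cells and transcripts were kept. Cell cycle genes gave 2 of 16 higher, and CD4+CD8+ thymocyte genes 3 of 5 lower, at 284 to 516 CPM against 49.6 to 71.2 CPM. Without library 3, 13 members were higher and 4 lower against 11.9% and 12.5% of genes tested.

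In TBGR cells CD122+T-bet- over CD122-T-bet- gave 0.11 (0.04 to 0.18), between 0.03 and 0.19 over the 4 library pairs. Of 67 members 10 (14.9%) were higher against 16.5% of genes tested, and 3 (4.48%) lower against 15.3%, so both shares were at or below the background. Mrpl1, whose protein forms the stalk at which deacylated tRNA leaves, was at 2.77 and 15.6 per 1000000 in CD122- and 33.0 and 38.03 in CD122+ libraries, a ratio of 1.90 (0.77 to 3.52). Mrpl36 was at 33.2 and 37.4 against 72.1 and 91.6, a ratio of 1.18 (0.55 to 1.91). Mrpl34 was at 52.6 and 46.8 against 117 and 88.2, a ratio of 1.04 (0.50 to 1.64). Each was higher in both CD122+ libraries than in either CD122- library. Mrpl34, Mrpl36 and Mrpl39 were among those higher in C-myc fl/fl too, 3 of the 10 here (30%) and of the 7 there (42.9%). Over all genes tested, 202 were higher in both, 20.8% of the 969 here and 42.5% of the 475 there. Mrpl2 (-0.59), Mrpl47 (-0.59) and Mrpl41 (-0.52) were lower. Cell cycle genes were 14 of 16 higher, at 336 to 486 CPM against 1773 to 2128 CPM. Population and library cannot be told apart in TBGR.

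The summed members were higher in TBGR T-bet int than in CD122+T-bet- cells. The relative log2 ratio of the sum was 0.17 (0.12 to 0.23), from 0.09 to 0.24 in 4 library pairs, with 10 of 67 members (14.9%) higher against 11.3% of genes tested and 0 lower against 13.9%. Mrpl47 was at 21.0 and 13.8 per 1000000 in CD122+T-bet- and 40.3 and 45.0 in T-bet int libraries, a ratio of 1.32 (0.59 to 2.14). Mrpl40 followed at 1.01 and Mrpl15 at 0.76. Mrpl42 was at 0.75 and Mrpl18, with most transcripts, at 0.59 (0.32 to 0.87). Without CD122+T-bet- library 1, 15 members were higher and 3 lower against 16.7% and 18.2% of genes tested. Without T-bet int library 1 it was 13 and 5 against 13.3% and 17.1%, and without T-bet int library 2 it was 14 and 6 against 14% and 18.2%. Cell cycle genes were 11 of 16 higher, at 1773 to 2128 CPM in CD122+T-bet- and 3140 to 3414 CPM in T-bet int libraries.

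From T-bet int to T-bet high, the summed members were lower in both mice. In TBGR the relative log2 ratio of the sum was -0.29 (-0.36 to -0.22), from -0.33 to -0.20 over library pairs, with 16 of 67 members (23.9%) lower against 19.5% of genes tested and 1 higher (Mrpl2, 0.88) against 18.2%. Mrps35, a mitochondria-specific protein of the small subunit, was at 42.0 and 51.9 per 1000000 in T-bet int and 16.3 and 15.6 in T-bet high, a ratio of -1.40 (-2.59 to -0.47). Mrpl17 was at 52.1 and 76.1 against 16.3 and 31.1, a ratio of -1.48 (-2.50 to -0.66), and Mrps6 was at -1.35. The same ratio in C-myc fl/fl, pooled over the libraries that int and high cells shared, was -0.28 (-0.36 to -0.20). It was below 0 in each library, at -0.31, -0.18, -0.35 and -0.34. Here 10 of 67 members (14.9%) were lower against 6.66% of genes tested, and 0 higher against 7.92%. Without TBGR T-bet high library 1, 21 members were lower and 5 higher against 23.7% and 23.9% of genes tested. Without C-myc fl/fl T-bet+ library 2, 16 were lower and 3 higher against 10% and 11%.

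Mrps22 in C-myc fl/fl was at 55.7, 77.1, 42.5 and 33.3 in T-bet int and 28.9, 30.8, 16.7 and 0.00 in T-bet high cells, a ratio of -1.30 (-2.53 to -0.30). Mrpl32, known as a substrate of the mitochondrial m-AAA protease, was at 106, 95.3, 119 and 122 against 50.5, 38.6, 50.2 and 61.9, a ratio of -1.08 (-1.87 to -0.39). Mrps7 was at 61.2, 59.0, 85.1 and 66.5 against 36.1, 15.4, 33.5 and 31.0, a ratio of -1.13. In each of these T-bet high cells were below T-bet int cells in all 4 libraries. The 16 members lower in TBGR and the 10 lower in C-myc fl/fl had 0 in common. Over all genes tested, 158 were lower in both, 13.8% of the 1145 lower in TBGR and 40.4% of the 391 lower in C-myc fl/fl. With few transcripts for each member this does not show that the lists differ. Genes of the cell cycle were lower in T-bet high in TBGR, 13 of 16, at 3140 to 3414 CPM in T-bet int against 354 to 1242 CPM in T-bet high. For C-myc fl/fl 5 of 16 were lower and 1 higher, at 2443 to 3505 CPM in T-bet int against 1744 to 3081 CPM in T-bet high. With cells of 2 or more cell cycle transcripts left out, the members' relative ratios were -0.16 in TBGR and -0.22 in C-myc fl/fl.

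**Figure D4:**
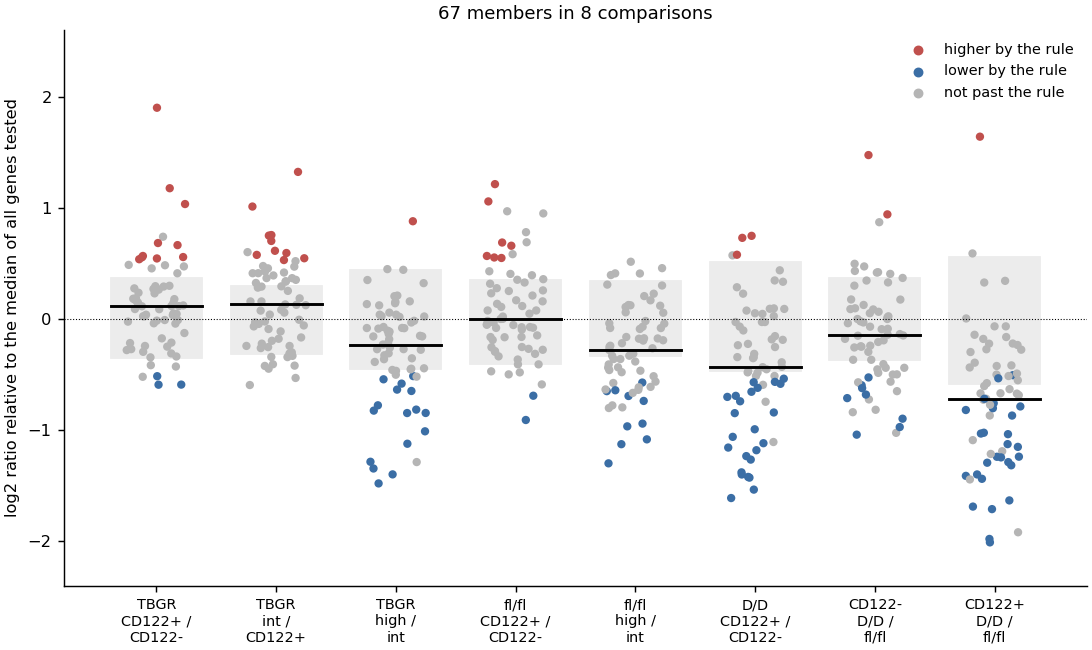
Relative log2 ratio of the 67 members in each of the 8 comparisons, with the black line at the members' median, the grey box at the quartiles of all 5870 genes tested, red for members called higher and blue for those called lower. The median lies at -0.72 for C-myc D/D Cd4 over C-myc fl/fl in CD122+T-bet- and between -0.43 and 0.13 in the other comparisons.

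Cytosolic ribosomal protein genes moved apart from the members in T-bet high cells. In TBGR their relative log2 ratio of T-bet high over T-bet int was 0.18, while members were at -0.29. Of 75 cytosolic genes tested, 8 were higher and 2 lower against 18.2% and 19.5% of all genes tested, so both shares were below the background. Cytosolic ribosomal protein transcripts per member transcript were 27.9 and 27.3 in CD122-T-bet-, 28.9 and 31.4 in CD122+T-bet-, 34.2 and 34.02 in T-bet int and 46.4 and 49.4 in T-bet high libraries. Both TBGR T-bet high libraries lay above the other 6. In C-myc fl/fl they were 26.1, 27.4, 26.3 and 22.9 in T-bet int and 31.4, 31.1, 31.0 and 27.3 in T-bet high cells, higher in T-bet high in each library. The relative log2 ratios there were -0.05 for cytosolic ribosomal protein genes and -0.28 for members. Of the 75 cytosolic genes 0 were higher and 1 lower, against 7.92% and 6.66% of all genes tested. Oxidative phosphorylation genes stayed nearer to members than cytosolic ribosomal protein genes did, at -0.40 in TBGR and -0.14 in C-myc fl/fl for T-bet high over T-bet int. Their transcripts per member transcript stayed between 3.25 and 3.99 in every library and population.

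**Figure D5:**
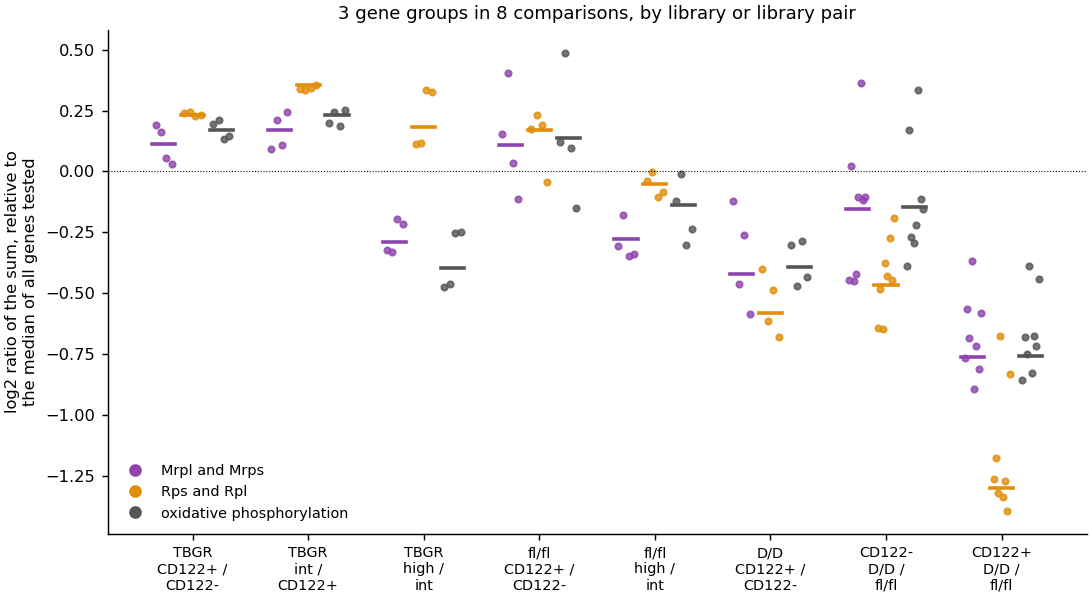
Relative log2 ratio of the summed members, cytosolic ribosomal protein genes and nuclear oxidative phosphorylation genes in each library pair of the 8 comparisons. Cytosolic ribosomal protein genes lie above members and oxidative phosphorylation genes for TBGR T-bet high over T-bet int. They lie below both for C-myc D/D Cd4 over C-myc fl/fl in CD122+T-bet-. For C-myc fl/fl T-bet high over T-bet int, oxidative phosphorylation genes (-0.14) lie between members (-0.28) and cytosolic ribosomal protein genes (-0.05).

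Other genes of mitochondrial translation were few and low. Of the 6 genes of mitochondrial ribosome proteins with other names (Dap3, Ptcd3, Chchd1, Gadd45gip1, Aurkaip1 and Ict1), 2 were lower in C-myc D/D Cd4 CD122+T-bet- over C-myc fl/fl, Gadd45gip1 at -2.04 and Ptcd3 at -1.68, and the median was -0.88. In C-myc D/D Cd4 CD122+ over CD122- cells 4 were lower, and for T-bet high over T-bet int 3 were lower in TBGR and 2 in C-myc fl/fl. Of 13 translation factors of mitochondria 5 were tested, with only Mrrf (ribosome recycling) lower in the same genotype comparison, at -1.0. Of 25 assembly factors 7 were tested and none was called there, with a median of -0.35. Of 22 tRNA synthetases 6 were tested, with Gars (-2.0) and Kars (-1.03), which also serve the cytosol, lower and Tars2 (0.86) higher. Of 19 genes for transcription and replication of mitochondrial DNA 8 were tested, with Tfam (-0.57), Lrpprc (-1.42), Slirp (-0.95) and Gabpa (-0.82) lower and Gabpb1 (1.21) higher. Lrpprc and Slirp stabilise mitochondrial mRNAs, and Tfam packages mitochondrial DNA and takes part in its transcription.

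Single cells were compared at matched depth, as member transcripts per cell after thinning to 1000 transcripts outside the low-quality group, which left out 36 of 1413 cells. The loss was uneven: C-myc fl/fl CD122+T-bet- library 4 kept 14 of 22 cells, and the C-myc D/D Cd4 CD122+T-bet- libraries kept all of theirs. C-myc fl/fl CD122+T-bet- libraries had means of 6.15, 4.97, 5.65 and 5.21 transcripts per cell, and C-myc D/D Cd4 libraries of 3.62 and 3.77. T-bet int cells had 4.45 and 4.45 in TBGR and 5.93, 5.45, 5.73 and 5.36 in C-myc fl/fl, and T-bet high cells 3.47 and 3.41 in TBGR and 5.23, 4.68, 3.88 and 4.29 in C-myc fl/fl. In every library 94.05% or more of cells had a member transcript. Among cells with 2 or more cell cycle transcripts the mean was 5.63 in C-myc fl/fl CD122+T-bet- (80 cells) and 3.89 in C-myc D/D Cd4 (36 cells). Among cells with 1 it was 6.53 (17 cells) and 3.91 (33 cells), and among cells with none 4.06 (16 cells) and 3.51 (68 cells). Cells of 1 mouse are not replicates, so these values carry no test.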

How the data were processed

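Single thymocytes were processed by CEL-Seq2, with 96 sorted cells pooled into each of 20 libraries. Per the study's methods and the submitters' processing notes, reads were demultiplexed with bcl2fastq 2.17.1.14 and mapped with BWA 0.6.2-r126 to mouse GENCODE transcripts (VM9), multi-mapping reads were discarded and largely overlapping loci were merged. The authors deposited estimated transcript counts per gene and cell, that is unique molecular identifiers of 6 bases corrected for collisions in a space of 4096. All other values were computed here.

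Estimates were rounded to whole transcripts. Cells with at least 2000 transcripts, mt- and ERCC- genes left out, were kept, and transcripts were summed per library and population, which gave 94268 to 775264 transcripts. No doublet caller was run. The 192 cell barcodes were the same in all libraries. CPM means per 1000000 transcripts. Ratios had 0.5 transcripts added, genes needed 200 transcripts over all passing cells, and a call needed a relative log2 ratio of 0.5 in size and libraries without overlap. Intervals of 95% are exact conditional binomial intervals for counting error. The low-quality group was set after seeing the data, as genes with a correlation above 0.65 with the markers. Python 3.11.15, numpy 2.4.6, pandas 2.3.3, scipy 1.17.1 and matplotlib 3.10.9 were used.

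With 1 mouse per genotype no test was made. Members and gene lists were chosen with earlier results of these data known. Named members were the 5 with most transcripts, the 3 highest and 3 lowest in each comparison and those called in C-myc fl/fl CD122+T-bet- over CD122-T-bet- or between the C-myc genotypes in CD122+T-bet- cells. Others were chosen after their values were seen. Alternatives changed the cell and gene minimums, the scaling, the depth, the rule and the libraries.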

Additional observations from a re-analysis of the deposited data

Results flagged for a closer look

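Among 58 groups of 4 libraries, 5 held 1 library far from the other 3, where chance gives about 1 in 20. All were in C-myc fl/fl cells, the only mouse with 4 libraries of a population. Mrpl41 was at 16.5 per 1000000 outside the low-quality group in CD122-T-bet- library 4 and at 86.3, 91.5 and 97.1 in the others. Mrps14 was at 125 in CD122+T-bet- library 4 and at 162, 167 and 165 in the others. In library 4 the CD122-T-bet- cells held 60720 and the CD122+T-bet- cells 39865 transcripts outside the low-quality group. Both single values therefore rest on few transcripts, and counting error was not set aside. Mrps6 was at 89.1 in T-bet int library 1 and at 27.2, 17.0 and 22.2 in the others. Gm10800, the leading gene of the low-quality group, took 49.1% of transcripts in CD122+T-bet- library 4 and 24.9%, 23.6% and 22.3% in the others. Cytosolic ribosomal protein transcripts per member transcript were 27.3 in T-bet high library 4 and 31.4, 31.1 and 31.0 in the others.

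Barcodes to which no cell was assigned, 1920 in all, held 148 member transcripts. They were found in 19 of 20 libraries, from 0 to 46 per library, and equalled 0.489% of the member transcripts in cells. TBGR T-bet high library 2 stood apart, with 46 such transcripts or 6.54% of its cells' 703, where the highest share in another library was 1.58%. Without that library the relative log2 ratio of TBGR T-bet high over int was -0.33.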

How the results depend on the processing

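Sums are log2 ratios of CPM of all transcripts. The low-quality group, cell cycle and library-set alternatives below were chosen after seeing the data. For TBGR CD122+T-bet- over CD122-T-bet- the sum (0.40) was 0.77 scaled by ERCC spike-ins, 0.11 by the median ratio and 0.12 by a total without the low-quality group (the reduced total), and 0.30 to 0.50 without 1 library. For TBGR T-bet int over CD122+T-bet- (0.20) it was 0.38 by ERCC, 0.107 thinned, 0.099 by the reduced total and 0.11 to 0.30 without 1 library. For TBGR T-bet high over int (-0.42) it was -0.32 thinned, -1.17 by ERCC, -0.29 by the median ratio, -0.24 without cycling cells and -0.46 to -0.40 without 1 library. For C-myc fl/fl CD122+ over CD122- (0.62) it was 0.11 by the median ratio, 1.42 without cycling cells, -0.14 without cells above 30% of the low-quality group and 0.43 to 0.74 without 1 library. For C-myc fl/fl T-bet high over int (-0.46) it was -0.28 by the median ratio, -0.37 without cycling cells, -0.31 without cells above 30%, -0.31 by the reduced total and -0.48 to -0.43 without 1 library. For C-myc D/D Cd4 CD122+ over CD122- (-0.30) it was 0.25 thinned, 0.70 without cycling cells, -0.61 without cells above 30% and -0.46 to 0.0078 without 1 library. Between the C-myc genotypes in CD122-T-bet- (0.30) it was -0.0026 thinned, -0.15 by the median ratio, -0.14 without cells above 30%, -0.064 by the reduced total, -0.055 without C-myc fl/fl T-bet- libraries 2 and 4, and -0.010 to 0.47 without 1 library. In CD122+T-bet- (-0.62) it was -0.71 to -0.56 without 1 library, and its relative ratio lay between -0.79 and -0.68 over the alternatives on cells, scaling and depth.

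Counts of members called, in the same order of comparisons, were 13, 10, 17, 9, 10, 27, 10 and 28. A minimum of 400 transcripts gave 3, 5, 6, 5, 6, 10, 2 and 13, with only 27 members and fewer genes tested. A rule of 1 gave 3, 2, 6, 2, 3, 12 and 2 in the first 7. A minimum of 1 transcript gave 57, 55, 32 and 3 in the first, the third, the fifth and the last, where the median ran over 25042 genes and depended on the 0.5 transcripts added. A rule of 0.3 gave 25 and 26 in the second and the third. Without cycling cells the fifth, the seventh and the last gave 6, 6 and 13, thinning gave 15 in the last, and leaving out C-myc fl/fl libraries 2 and 4 gave 15 in the fourth and 21 in the seventh. Without 1 library the counts were 14 to 19, 15 to 20, 19 to 26, 8 to 17, 11 to 19, 32 to 37, 12 to 21 and 31 to 37, with fewer libraries that could overlap. All these counts add both directions, and the share of all genes called moved with the setting. Without C-myc fl/fl libraries 2 and 4, the fourth had 10 higher and 5 lower against 17.7% and 18.8% of genes tested. With all libraries those shares were 8.09% and 9.15%. The seventh then had 3 higher and 18 lower against 15.8% and 14.4%. A changed count alone is therefore no result about the members. Of single members, thinning turned Mrpl17 in TBGR T-bet high over int to 0.084 and Mrpl47 in TBGR CD122+ over CD122- to 0.29, and leaving out cells above 30% turned Mrps2 in C-myc D/D Cd4 CD122+ over CD122- to -0.49. The cause was not tested. ERCC spike-ins were read only in TBGR libraries. No paired analysis was possible because no test was made that could carry a block, and the replicate numbers join no mice. C-myc fl/fl ratios between populations were pooled over the libraries that both populations shared. Only the per-library values, and the directions that the rule asked for, were taken within a library.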
